A study of Mus musculus with 62 samples.

Results

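Dlk1, Meg3, Rian, Peg3, Peg10, Ndn, Magel2, Nnat, Impact and Snrpn, 10 genes chosen because they are imprinted, were followed in 3 mouse brain regions. These were the hypothalamic suprachiasmatic nucleus (SCN), the prefrontal cortex (PFC) and the nucleus accumbens (NAc). The genes were found by matching the Ensembl gene identifiers of the count tables to these symbols. All 10 had a row among the 12047 rows of the SCN table. The other table, for NAc and PFC, holds 11569 rows, with 9 of the genes among them and Magel2 absent. Both tables together hold 12483 genes, of which 11133 have a row in each.

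Tissue punches were taken at ZT6, 6 h after lights on, from C57BL/6J mice about 4 weeks after circadian rhythm disruption (CRD) or a control paradigm. For the CRD animals the study's methods name adolescence alone, whereas the labels name adult CRD as well. RNA of each punch (10 ng) was sequenced, giving 19 SCN, 26 NAc and 17 PFC libraries from 26 mice, with 17 mice giving both the NAc and the PFC, 19 the SCN and the NAc, and 12 the SCN and the PFC. Per library, the labels state region and mouse but not sex and not whether the mouse was a CRD or a control animal. Every group here is therefore a region that mixes those conditions, which were not compared. The SCN is the hypothalamic nucleus that holds the circadian pacemaker, and the NAc and PFC are part of the circuitry of reward.

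An imprinted gene is transcribed mainly from the copy inherited from the father or mainly from the copy inherited from the mother, because the 2 copies carry different DNA methylation at a control region. Imprinted genes tend to lie in clusters that share such a region. In some clusters, protein-coding genes of the paternal copy stand beside noncoding RNAs of the maternal copy. Many imprinted genes are expressed in the brain, above all in the hypothalamus. The counts do not separate the parental copies, so each level is the sum over both.

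Of the 10 genes, 3 belong to a cluster on chromosome 12 of GRCm38. Dlk1 (ENSMUSG00000040856, 109452823 to 109463336, plus strand) is paternally expressed and encodes a transmembrane protein with EGF-like repeats related to Notch ligands. Meg3 (ENSMUSG00000021268, 109541001 to 109571726, plus strand) and Rian (ENSMUSG00000097451, 109603940 to 109661716, plus strand) are maternally expressed noncoding RNAs. A further 3 lie on chromosome 7 in the region that corresponds to the human Prader-Willi locus, all paternally expressed. They are Ndn (ENSMUSG00000033585, 62346569 to 62350262, plus strand) and Magel2 (ENSMUSG00000056972, 62377010 to 62381640, plus strand), which encode MAGE family proteins, and Snrpn (ENSMUSG00000102252, 59982495 to 60140219, minus strand), which encodes a neuronal splicing protein.

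The other 4 are single members of other clusters, and all are paternally expressed. Peg3 (ENSMUSG00000002265, chromosome 7, 6703892 to 6730431, minus strand) encodes a zinc finger protein and Peg10 (ENSMUSG00000092035, chromosome 6, 4747306 to 4760517, plus strand) a protein derived from a retrotransposon. Nnat (ENSMUSG00000067786, chromosome 2, 157560078 to 157562522, plus strand) encodes neuronatin, a small membrane protein of the endoplasmic reticulum, and lies inside an intron of Blcap. Impact (ENSMUSG00000024423, chromosome 18, 12955852 to 12992950, plus strand) encodes a neuronal inhibitor of the kinase GCN2.

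Some rows share exon bases with other annotated genes. This was 34.1% of exon bases for Snrpn, 8.29% for Meg3, 4.76% for Nnat and 3.42% for Rian. For Snrpn, 589 of these bases also belong to Gm38393, which has a row of its own in both tables. Reads that fell on more than 1 gene were not counted by the union mode of HTSeq, so the Snrpn level is uncertain. For Meg3, 1228 of the shared bases belong to Gm26906 on the opposite strand, and the sources do not say whether strand was used in counting.

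The 250 bases before the RefSeq start of Dlk1, Meg3, Peg3 and Nnat are given below, 5′ to 3′ on the strand of the gene, because Dlk1 and Nnat differed most of these members between the SCN and the NAc on the log2 scale, Meg3 is the noncoding neighbour of Dlk1, and Peg3 is described by library. They come from RefSeq on GRCm38.p6, at chr12:109452573-109452822 on the plus strand for Dlk1, chr12:109540746-109540995 on the plus strand for Meg3, chr7:6730420-6730669 on the minus strand for Peg3 and chr2:157559828-157560077 on the plus strand for Nnat. Capitals mark the letters of 3 motifs searched on both strands, the first and second of which were picked after the sequences had been seen. These were TGACGTCA (the cAMP response element), GCATGCGC (an NRF1 site) and TGCCGC (the ZFP57 motif).
Dlk1: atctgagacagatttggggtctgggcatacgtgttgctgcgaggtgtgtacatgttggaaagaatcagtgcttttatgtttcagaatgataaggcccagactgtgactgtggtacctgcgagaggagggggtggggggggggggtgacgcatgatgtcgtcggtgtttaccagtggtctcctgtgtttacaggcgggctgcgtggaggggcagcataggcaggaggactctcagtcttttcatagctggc
Meg3: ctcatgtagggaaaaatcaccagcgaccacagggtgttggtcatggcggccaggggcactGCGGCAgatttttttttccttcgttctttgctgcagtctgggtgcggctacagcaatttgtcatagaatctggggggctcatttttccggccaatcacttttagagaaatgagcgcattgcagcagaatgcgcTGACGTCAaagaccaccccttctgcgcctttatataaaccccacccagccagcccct
Peg3: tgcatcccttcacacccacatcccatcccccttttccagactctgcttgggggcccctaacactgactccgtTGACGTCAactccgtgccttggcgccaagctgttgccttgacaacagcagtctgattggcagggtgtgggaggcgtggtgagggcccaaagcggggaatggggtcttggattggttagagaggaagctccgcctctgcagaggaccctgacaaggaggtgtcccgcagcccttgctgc
Nnat: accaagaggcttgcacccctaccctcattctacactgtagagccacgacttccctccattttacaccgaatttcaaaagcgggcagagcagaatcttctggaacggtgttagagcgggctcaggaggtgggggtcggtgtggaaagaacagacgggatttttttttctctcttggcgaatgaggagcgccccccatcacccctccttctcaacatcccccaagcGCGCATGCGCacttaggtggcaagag

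TGACGTCA, which reads the same on both strands, stood in the windows of Meg3 and Peg3 and in 1.55% of all 32851 windows of that length. GCATGCGC stood in the window of Nnat, where its forward and reverse matches overlap, and in 2.26% of all windows. The reverse complement of TGCCGC stood in the window of Meg3, and this motif was in 8.68% of all windows. None of the 3 motifs was found in the Dlk1 window, which says only that these letters are not in those 250 bases. Nnat held 12 CpG dinucleotides, Meg3 10, and Dlk1 and Peg3 8 each, against a median of 6 over all windows. Of all windows, 33.5% held at least as many as Nnat, 37.8% as Meg3 and 43.0% as Dlk1 or Peg3. Meg3 has another RefSeq start, whose window at chr12:109545148-109545397 held 0 CpG and none of the 3 motifs.

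Levels are given in CPM, the count scaled to a common library size, after joint scaling of the 62 libraries over the 11133 shared rows with the trimmed mean of M values (TMM). Between regions, a gene was called where edgeR's quasi-likelihood test gave a fold change of at least 1.2 and a p under 0.05 after Benjamini-Hochberg adjustment over all genes. The SCN was deposited in a table of its own, so a difference between the SCN and another region and a difference between the tables cannot be told apart. The comparisons of the SCN with the NAc and with the PFC share the SCN libraries. In punches, fewer cells of a type and less RNA per cell cannot be told apart.

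Depth differed between regions. SCN libraries held 16496666 to 35389742 counts, NAc libraries 28879724 to 60009482 and PFC libraries 31216225 to 50333579. The mitochondrial ribosomal RNAs mt-Rnr1 and mt-Rnr2 took a median share of 38.2% (SCN), 49.4% (NAc) and 46.6% (PFC). SCN J1157 and SCN J1159 stood apart with the lowest such shares, 20.5% and 24.8%, and the highest counts on nuclear genes. SCN J1199 and SCN J1140 held striatal transcripts, with up to 134 CPM of Ppp1r1b against an SCN median of 5.21 CPM. The Xist level of SCN J1165 did not match the other libraries of its mouse. Marker levels are on the scale of their own table. The 7 striatal neuron markers summed to a median of 1564 CPM in the NAc against 77.1 CPM in the PFC, and the 7 cortical glutamatergic markers to 868 CPM in the PFC against 96.4 CPM in the NAc. The SCN neuron markers, all 9 of which are in the SCN table, summed to a median of 317 CPM there (89.2 to 463 CPM), and 3 of the 9 have a row in the other table.

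**Figure D1:**
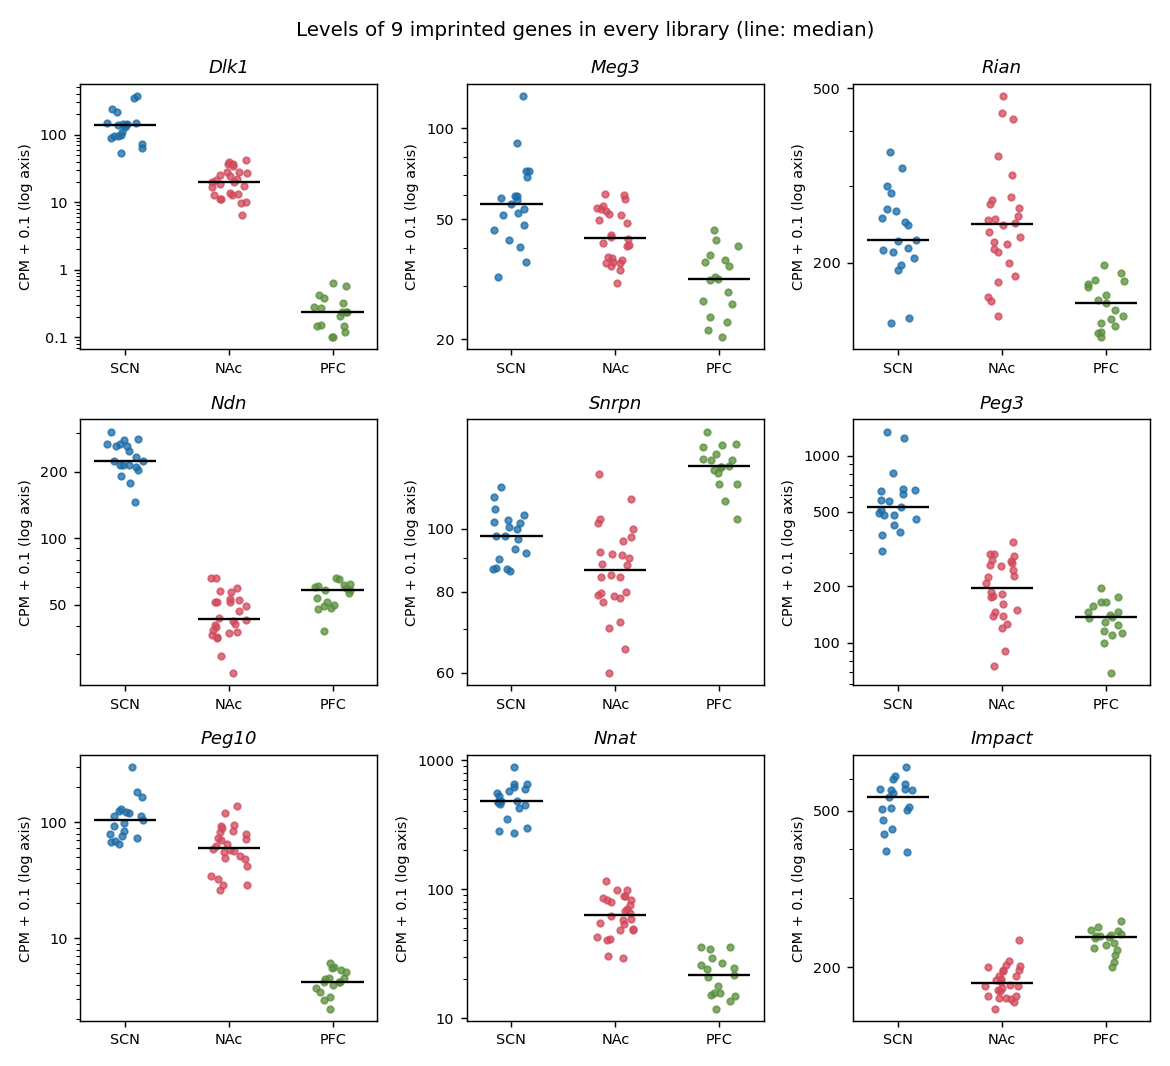
Level of 9 imprinted genes in every library, as CPM + 0.1 on a log axis whose range differs between panels, for the SCN (19 libraries), NAc (26) and PFC (17); points are libraries and lines are medians. Dlk1 separates the 3 regions without overlap, every PFC library lies below every other library for Peg10, and Snrpn has its highest median in the PFC.

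Between the NAc and the PFC, all 9 of these imprinted genes with a row passed the test, Dlk1 with hardly any counts in the PFC. Dlk1, Peg10, Nnat, Rian, Peg3 and Meg3 were higher in the NAc, and Snrpn, Impact and Ndn were lower. Over all 11569 genes, 45.4% passed the test, 23.7% higher and 21.7% lower in the NAc. The median log2 fold change of the 9 genes was 0.59, against 0.02 over all genes.

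Dlk1 had the largest difference. NAc libraries held 6.42 to 41.6 CPM (median 20.1 CPM) and PFC libraries 0 to 0.543 CPM (median 0.137 CPM). In the PFC these levels rest on 0 to 25 counts a library and 126 counts in all, with 2 of 17 libraries at 0. There a count of 0 allows up to 0.0961 CPM by counting error alone, a limit computed from total counts and not on the joint scale. No NAc library overlapped with a PFC library, and Dlk1 was higher in the NAc of 17 of 17 mice. Its fitted log2 fold change was 6.91 ± 0.32 (SE). With all 17 PFC libraries under 1 CPM, Dlk1 passed the filter on low counts only through the NAc, so it had to differ, and its size is uncertain. With a filter of CPM above 1, met in each region by no fewer libraries than missed it, Dlk1 was not tested and the other 8 genes passed the test.

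Peg10 ranged from 26.1 to 138 CPM in the NAc (median 60.4 CPM) and from 2.37 to 6.0 CPM in the PFC (median 4.10 CPM). Again the libraries of the 2 regions did not overlap and 17 of 17 mice had more in the NAc. On the log2 scale the difference was 3.95 ± 0.19 (SE, adjusted p = 7.99e-23). Of all 11569 genes, 4.83% were higher in every NAc library than in every PFC library and 4.67% lower, and none of the 9 genes was among the latter. Nnat reached 28.9 to 115 CPM in the NAc (median 63.3 CPM) and 11.7 to 35.7 CPM in the PFC (median 21.5 CPM). The ranges overlapped, but within a mouse the NAc was higher in 17 of 17. The log2 fold change of Nnat was 1.55 ± 0.16 (SE, adjusted p = 1.15e-11).

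The 2 noncoding RNAs of the chromosome 12 cluster differed far less than Dlk1, their protein-coding neighbour. Meg3 ranged from 30.8 to 60.6 CPM in the NAc (median 43.4 CPM) and from 20.3 to 46.0 CPM in the PFC (median 31.5 CPM). Rian ranged from 151 to 481 CPM in the NAc (median 245 CPM) and from 135 to 198 CPM in the PFC (median 162 CPM). For each, the ranges overlapped widely, and the NAc was higher in 16 of 17 mice. The log2 fold change was 0.51 ± 0.10 for Meg3 (SE, adjusted p = 1.16e-05) and 0.68 ± 0.11 for Rian (SE, adjusted p = 7.28e-07).

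Peg3 ranged from 74.8 to 344 CPM in the NAc (median 197 CPM) and from 68.9 to 197 CPM in the PFC (median 137 CPM). The ranges overlapped, and 13 of 17 mice had more in the NAc. Its log2 fold change was 0.59 ± 0.14 (SE, adjusted p = 3.98e-04). With the mouse as a block in the 17 mice that gave both regions, this fell to 0.34 (adjusted p = 0.0717) and was no longer called, while the same mice without the block gave 0.38 (adjusted p = 0.0192). The mouse numbers have a gap between J1021 and J1140, and mice below and above it were also compared apart, as the lower and the upper range. Peg3 was also not called in the lower range alone, with 0.42 (adjusted p = 0.149) against 0.72 (adjusted p = 7.15e-04) in the upper range.

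The 3 genes lower in the NAc differed by at most 0.52 in size on the log2 scale. Snrpn ranged from 59.9 to 121 CPM in the NAc (median 86.2 CPM) and from 103 to 141 CPM in the PFC (median 125 CPM). It was lower in the NAc of 17 of 17 mice although the ranges overlapped, with a log2 fold change of -0.52 ± 0.06 (SE, adjusted p = 1.76e-10). With the Gm38393 counts added it was -0.37 and still called. The NAc library with the most Snrpn, that of J1199, also had the most Slc17a7, the vesicular glutamate transporter of cortical neurons, at 340 CPM against an NAc median of 64.6 CPM. Over the 26 NAc libraries, Snrpn followed the summed level of the 7 cortical glutamatergic markers with r = 0.82, positive for 7 of the 7, and that of the 10 general neuron markers with r = 0.84. There Peg3 (0.62), Ndn (0.62), Nnat (0.54) and Impact (0.52) also followed the cortical markers. Rian (-0.67), Meg3 (-0.58), Peg10 (-0.22) and Dlk1 (-0.13) had negative r with them. Over the 17 PFC libraries, Snrpn had r = 0.12 with the same markers. These cortical markers summed to 11.6 to 447 CPM in the NAc and 796 to 939 CPM in the PFC, and their part in the Snrpn difference was not tested.

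Impact ranged from 157 to 234 CPM in the NAc (median 182 CPM) and from 201 to 263 CPM in the PFC (median 238 CPM). Every mouse with both regions had less in the NAc, 17 of 17, and the log2 fold change was -0.34 ± 0.04 (SE, adjusted p = 6.89e-10). Ndn ranged from 24.4 to 65.7 CPM in the NAc (median 43.0 CPM) and from 37.9 to 65.6 CPM in the PFC (median 58.0 CPM), so the PFC range lay within that of the NAc. It was lower in the NAc of 15 of 17 mice, with a log2 fold change of -0.28 ± 0.09 (SE, adjusted p = 0.00490). Among mice of the upper number range Ndn was not called, at -0.14 (adjusted p = 0.280), against -0.47 (adjusted p = 0.00394) in the lower range. With the mitochondrial rRNA share as a covariate it was -0.22 (adjusted p = 0.00309), under the fold of 1.2.

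**Figure D2:**
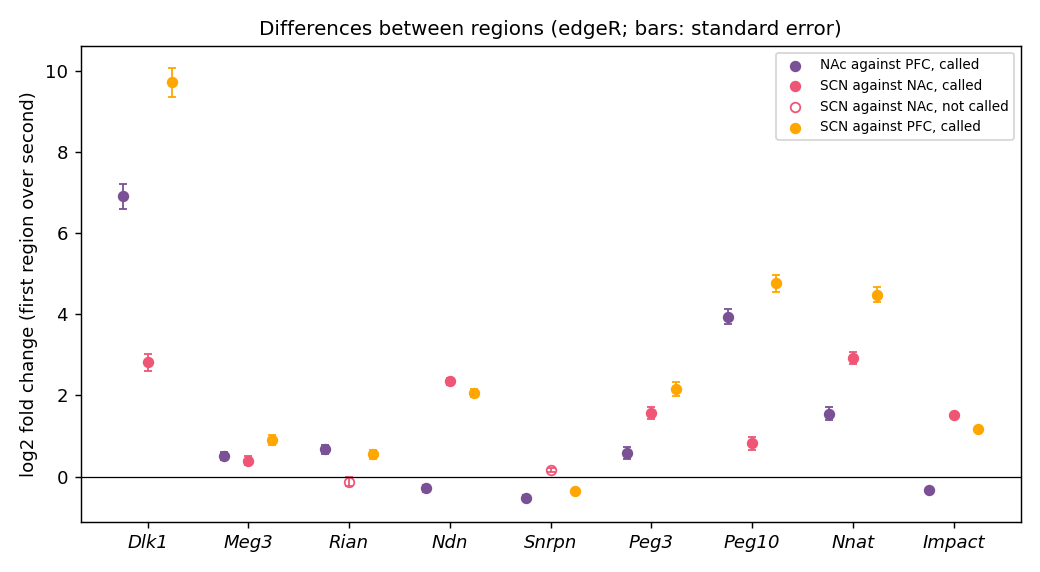
Log2 fold change of 9 imprinted genes between regions from edgeR, with bars of 1 standard error, where a filled point was called and an open point was not. All NAc to PFC differences were called, Rian and Snrpn were not called between the SCN and the NAc, and Dlk1 reached 9.72 between the SCN and the PFC.

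In the SCN, 7 of the 9 shared genes had their highest median, the exceptions being Rian, highest in the NAc, and Snrpn, highest in the PFC. Scaled by total counts alone, Rian was also highest in the SCN, which made 8. The share of all genes with their highest median in the SCN was not computed. Against the NAc, 7 of the 9 were higher in the SCN, none was lower, and 2 were not called. Over all 11133 genes, 64.1% were called, 33.1% higher and 31.0% lower in the SCN. Against the PFC, 8 were higher in the SCN and 1, Snrpn, was lower, where 64.7% of all genes were called, 33.7% higher and 31.0% lower. The median log2 fold change of the 9 was 1.51 against the NAc and 2.07 against the PFC, with 0.02 and 0.03 over all genes.

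Dlk1 ranged from 53.4 to 378 CPM in the SCN, with a median of 140 CPM. Every SCN library was above every NAc and PFC library. The log2 fold change was 2.82 ± 0.21 (SE, adjusted p = 1.72e-19) against the NAc. Against the PFC, with its 126 counts of Dlk1 in 17 libraries, the fitted value was 9.72 ± 0.37 (SE). The same limit holds, since Dlk1 entered this comparison through the SCN and NAc libraries and not through those of the PFC. Nnat ranged from 273 to 879 CPM in the SCN (median 484 CPM), also above every library of the other regions. On the log2 scale it was 2.93 ± 0.15 (SE, adjusted p = 1.04e-27) above the NAc and 4.48 ± 0.19 (SE, adjusted p = 6.33e-32) above the PFC.

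Ndn and Impact, both lower in the NAc than in the PFC, were also higher in every SCN library than in any other library. Ndn ranged from 145 to 304 CPM in the SCN (median 224 CPM), and Impact from 392 to 643 CPM (median 542 CPM). The log2 fold change of Ndn was 2.35 ± 0.08 (SE, adjusted p = 8.81e-35) against the NAc and 2.07 ± 0.10 (SE, adjusted p = 6.54e-29) against the PFC. Impact gave 1.51 ± 0.05 (SE, adjusted p = 7.30e-38) against the NAc and 1.17 ± 0.05 (SE, adjusted p = 1.20e-29) against the PFC. Without overlap between libraries, 5.63% of all genes were higher in the SCN than in the NAc and 7.54% lower, and 8.96% were higher than in the PFC and 11.7% lower. None of the 9 was lower without overlap.

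Peg3 was higher in the SCN of 19 of 19 mice than in their NAc, at 310 to 1344 CPM in the SCN (median 531 CPM). Its lowest SCN library fell within the NAc range, and all SCN libraries lay above those of the PFC. The log2 fold change was 1.57 ± 0.15 (SE, adjusted p = 3.27e-15) against the NAc and 2.16 ± 0.17 (SE, adjusted p = 4.95e-18) against the PFC. With the mitochondrial rRNA share as a covariate, the difference of Peg3 from the NAc was 0.78 and that of Dlk1 1.97, both still called. Peg10 ranged from 64.6 to 298 CPM in the SCN (median 104 CPM), overlapping with the NAc but not with the PFC. It was 0.82 ± 0.16 (SE, adjusted p = 5.92e-06) on the log2 scale above the NAc and 4.76 ± 0.21 (SE, adjusted p = 5.88e-30) above the PFC. The difference of Peg10 from the NAc was 0.29 (adjusted p = 0.157) with the mitochondrial rRNA share as a covariate and 0.52 (adjusted p = 0.0556) in the lower range of mouse numbers, not called in either.

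Meg3 ranged from 32.1 to 128 CPM in the SCN (median 56.1 CPM), overlapping with both other regions. It was higher in the SCN by 0.40 ± 0.11 (SE, adjusted p = 8.44e-04) on the log2 scale against the NAc and by 0.90 ± 0.12 (SE, adjusted p = 1.54e-09) against the PFC. In the lower range of mouse numbers the former was 0.31 (adjusted p = 0.0540) and not called. Rian, at 145 to 358 CPM in the SCN (median 226 CPM), was not called against the NAc, with -0.12 ± 0.10 (SE, adjusted p = 0.278). It was higher in 9 of 19 mice and lower in 10. With the mitochondrial rRNA share as a covariate, Rian was instead higher in the SCN, at 0.50 (adjusted p = 1.87e-09). Against the PFC Rian was higher by 0.55 ± 0.11 (SE, adjusted p = 1.87e-05).

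Snrpn had no fold change over 0.52 in size on the log2 scale in any of the 3 comparisons. It ranged from 85.9 to 116 CPM in the SCN (median 97.4 CPM). Against the NAc the log2 fold change of 0.17 ± 0.05 (SE, adjusted p = 0.00379) was under the 1.2-fold limit, and against the PFC it was -0.35 ± 0.06 (SE, adjusted p = 3.09e-07), lower in the SCN of 12 of 12 mice. Magel2, measured in the SCN table alone and scaled on that table, lay between 15.6 and 36.6 CPM (median 19.8 CPM). On the same scale its neighbour Ndn had a median of 248 CPM. Without SCN J1157 and SCN J1159, each call of the 9 shared genes against the NAc and the PFC stayed on its side of the threshold, with 0.63 for Peg10 and 0.28 for Meg3 against the NAc.

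Levels of different genes were compared per kilobase of annotated exon. For Snrpn, 34.1% of these bases are shared with other annotated genes, and reads on more than 1 gene were not counted. The place of Snrpn in each order below is therefore uncertain. In the SCN, Nnat was highest with a median of 264 CPM per kilobase, above every library of the next gene, Impact, at 106 CPM per kilobase. Ndn (60.6 CPM per kilobase), Snrpn (45.1), Peg3 (39.9), Dlk1 (24.8), Peg10 (15.7), Rian (12.4) and Meg3 (3.10) followed. Neighbours in this order overlapped between libraries except Nnat with Impact, and Rian with Meg3. In the PFC the order was Snrpn (57.8 CPM per kilobase), Impact (46.5), Ndn (15.7), Nnat (11.8), Peg3 (10.3), Rian (8.90), Meg3 (1.74), Peg10 (0.616) and Dlk1 (0.0241), so the gene ranked sixth in the SCN came last. Snrpn (39.9 CPM per kilobase), Impact (35.5) and Nnat (34.6) led in the NAc with overlapping ranges.

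The genes also differed in how much their level varied between libraries of the same region. Dlk1 had a standard deviation of log2 CPM (prior count 2) of 0.75 (SCN), 0.71 (NAc) and 1.09 (PFC). These were above 96.4%, 96.9% and 99.9% of all genes of the table, and in the PFC Dlk1 rests on 0 to 25 counts a library. Its highest SCN library held 7.07 times the CPM of the lowest. The most even genes were Snrpn and Impact. Snrpn had 0.13 (SCN), 0.23 (NAc) and 0.11 (PFC), at percentiles 3.06, 38.9 and 13.8 of all genes of the table. Impact had 0.20 (SCN), 0.13 (NAc) and 0.10 (PFC), at percentiles 21.7, 4.69 and 10.5. The highest SCN levels of Dlk1, Meg3 and Peg10 were in J1157 and those of Peg3, Magel2 and Snrpn in J1159, the 2 libraries that stand apart.

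Some of this variation moved with the makeup of the library. Peg3 fell as the mitochondrial rRNA share rose, with r = -0.80 (SCN), -0.78 (NAc) and -0.77 (PFC), and followed the summed level of 10 neuron markers with r = 0.82, 0.92 and 0.81, positive for all 10 markers in each region. Rian went the other way, with r = 0.80, 0.93 and 0.78 with the mitochondrial rRNA share. For Rian this depends on the scale, since with CPM from total counts alone r was 0.26 (SCN), 0.52 (NAc) and -0.15 (PFC), whereas Peg3 kept -0.88, -0.88 and -0.89. The share of mitochondrial rRNA is part of the total, and these values describe libraries and were not tested. SCN J1157 and SCN J1159, which had the lowest shares, also had the highest Peg3 of the SCN (1237 and 1344 CPM). Their Rian was the lowest of the SCN (145 and 150 CPM), and r without these 2 libraries was not computed.

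In the SCN, Dlk1 followed the summed level of the 9 SCN neuron markers with r = 0.78, positive for 9 of 9, and Peg10 with r = 0.64. The lowest Dlk1, Ndn, Nnat, Magel2 and Impact levels of the SCN, on the joint scale or, for Magel2, that of the SCN table, were all in J1199, 1 of the 2 libraries with striatal transcripts. On the scale of the SCN table, Impact in J1199 ranked 18 of 19 from the highest. The other such library, J1140, ranked 13 of 19 for Dlk1, 14 for Ndn, 17 for Nnat, 16 for Magel2 and 7 for Impact. In the NAc, Ndn and Nnat followed the neuron markers with r = 0.73 and 0.66 and went against the striatal markers with r = -0.69 and -0.64, negative for 7 of 7 genes in each case. The part of cell makeup in the spread of these genes was not tested.

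**Figure D3:**
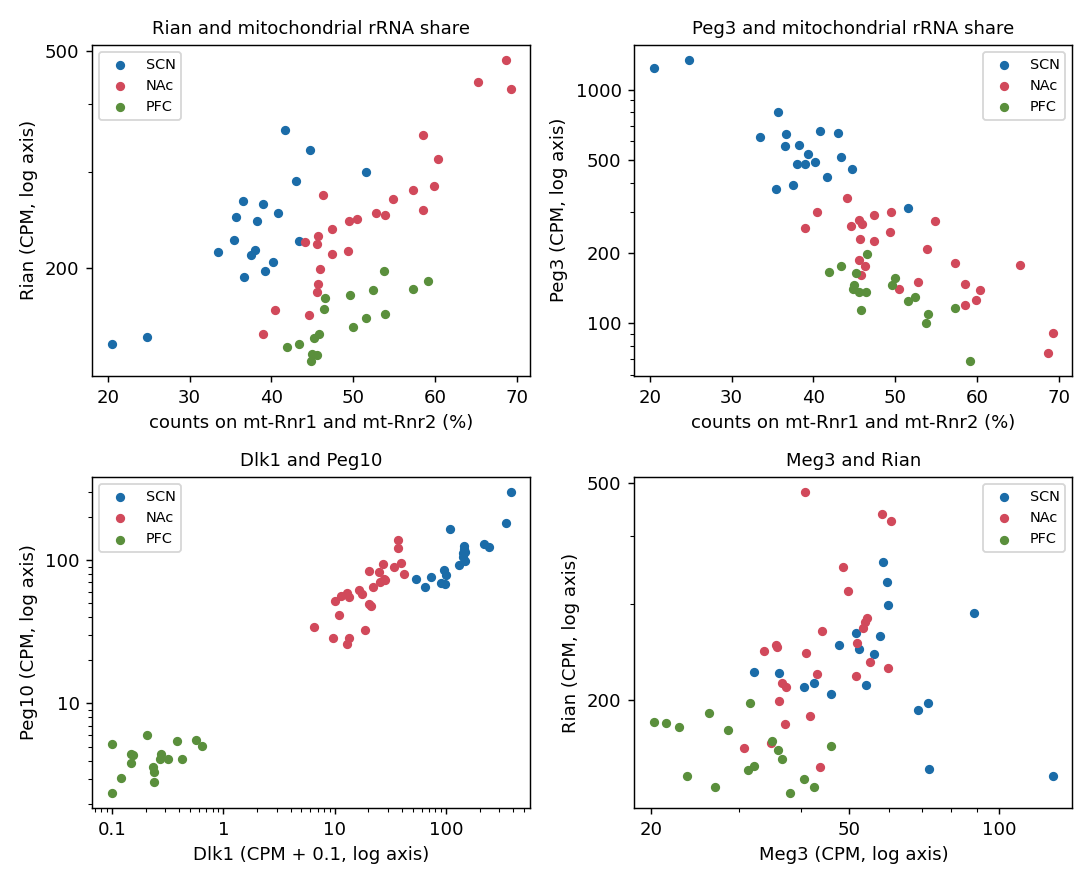
Levels in CPM on log axes by library for the SCN, NAc and PFC, with Rian and Peg3 against the percent of counts on mt-Rnr1 and mt-Rnr2 (upper panels), and Peg10 against Dlk1 and Rian against Meg3 (lower panels). Within each region, on the TMM scale, Rian rose and Peg3 fell along the mitochondrial share, the 2 SCN libraries at 20.5% and 24.8% lie apart, and Dlk1 and Peg10 rose together in the SCN and NAc.

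Within a region, the relations between genes of the same cluster were tested across libraries with Pearson's r of log2 CPM and a permutation test, adjusted over all genes of the table for each gene taken as reference. For the chromosome 12 cluster in the NAc, Meg3 and Rian rose together, with r = 0.53 (permutation p = 0.00544, adjusted p = 0.0363) and Spearman's rho = 0.53 (permutation p = 0.00564, adjusted p = 0.0459). At this threshold Meg3 was positively related to 9.45% and negatively to 9.75% of all genes of the table. Without the 2 libraries farthest from the median of Meg3, r was 0.39 (adjusted p = 0.226), so the call rests on those libraries. Meg3 was then related to 0.726% of all genes. Within the lower and upper ranges of mouse numbers r was 0.49 and 0.47, neither called, and there Meg3 was related to 0.0% of all genes. After removal of a linear relation with the mitochondrial rRNA share r was 0.36 (adjusted p = 0.265), where Meg3 was related to 3.44% of all genes.

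In the other regions the r of these noncoding RNAs was negative and not called. In the SCN, Meg3 and Rian had r = -0.24 (permutation p = 0.313, adjusted p = 0.511), and in the PFC r = -0.46 (permutation p = 0.0624, adjusted p = 0.358), with Spearman's rho of -0.0684 and -0.52. The difference between regions was not tested. Dlk1 and Meg3 had r = 0.38 in the SCN (adjusted p = 0.273), 0.07 in the NAc (adjusted p = 0.830) and 0.45 in the PFC (adjusted p = 0.367) by permutation, with rho of 0.18, 0.0694 and 0.40. Without SCN J1157 and SCN J1159, r in the SCN was -0.0686. Dlk1 and Rian had r = -0.51 in the SCN (adjusted p = 0.0853), -0.39 in the NAc (adjusted p = 0.129) and -0.23 in the PFC (adjusted p = 0.651), also by permutation, with rho of -0.43, -0.35 and -0.15. In the SCN, Meg3 was positively related to 1.39% and negatively to 1.08% of all genes, and Dlk1 to 11.7% and 9.86%. In the NAc, Dlk1 was related to 13.3% positively and 9.74% negatively. The relation of Dlk1 and Rian in the SCN was called without SCN J1199 and SCN J1140, with r = -0.65 (adjusted p = 0.0214), where Dlk1 was related to 32.5% of all genes, and was -0.0641 without SCN J1157 and SCN J1159. That of the NAc was called without the 2 farthest libraries, with r = -0.58 (adjusted p = 0.0136), where Dlk1 was related to 37.0% of all genes.

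For the chromosome 7 cluster, Ndn and Snrpn rose together in the NAc, with r = 0.67 (permutation p = 2.10e-04, adjusted p = 9.76e-04), Spearman's rho = 0.69 (permutation p = 1.80e-04, adjusted p = 9.66e-04) and r = 0.70 without the 2 farthest libraries. Ndn was positively related to 26.8% and negatively to 26.6% of all genes in the NAc. Within the lower and upper ranges of mouse numbers r was 0.68 (adjusted p = 0.0710) and 0.61 (adjusted p = 0.0685), and after removal of the relation with the mitochondrial rRNA share 0.39 (adjusted p = 0.180), called in none of these. Ndn was related there to 12.8%, 28.9% and 13.1% of all genes. In the PFC r was 0.53 (permutation p = 0.0316, adjusted p = 0.272) and in the SCN 0.0612 (permutation p = 0.805, adjusted p = 0.961), with rho of 0.53 and -0.0719. Without the 2 farthest PFC libraries r was 0.76 (adjusted p = 0.686), where Ndn was related to 0.0% of all genes. In the SCN, Ndn and Magel2 had r = 0.35 (permutation p = 0.144, adjusted p = 0.710) and Magel2 and Snrpn r = 0.30 (permutation p = 0.209, adjusted p = 0.369), with rho of 0.35 and 0.27. There Ndn was related to 0.0% of genes at the threshold and Magel2 to 10.1% positively and 6.62% negatively. In all, 2 of 4 same-cluster pairs were called in the NAc, 0 of 4 in the PFC and 0 of 6 in the SCN. In the PFC, Meg3, Dlk1 and Ndn were each related to 0.0% of all genes at the threshold. There the 0 of 4 says nothing about these pairs in particular. At an unadjusted permutation p under 0.05, the PFC had 1 such pair (Ndn and Snrpn) and the SCN 1 (Dlk1 and Rian).

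**Figure D4:**
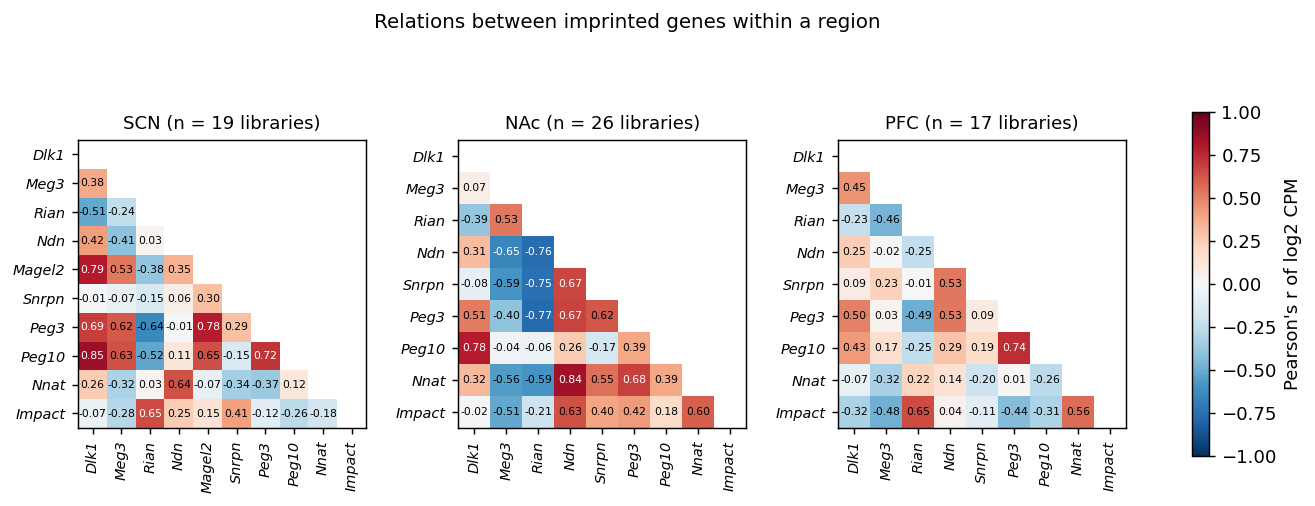
Pearson's r of log2 CPM between imprinted genes across the libraries of the SCN (10 genes), the NAc and the PFC (9 genes each), with red for positive and blue for negative r. Dlk1 with Peg10 (0.85, 0.78 and 0.43) is high in the SCN and NAc, and pairs within the chromosome 12 and chromosome 7 clusters are not the highest.

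Some genes on different chromosomes had higher r than genes of the same cluster, which is given as a description. Dlk1 and Peg10 had r = 0.85 (SCN), 0.78 (NAc) and 0.43 (PFC), where Dlk1 is near 0. In the SCN it was 0.73 without SCN J1157 and SCN J1159. Ndn and Nnat had r = 0.64 (SCN), 0.84 (NAc) and 0.14 (PFC). Dlk1 and Magel2 had r = 0.79 in the SCN, which was 0.58 without the same 2 libraries. Peg3 and Peg10 had r = 0.72 (SCN), 0.39 (NAc) and 0.74 (PFC), with 0.40 in the SCN without those 2. Libraries share depth and tissue makeup, so these values do not stand for the genes alone.

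Whether a mouse with a high level in a region also had a high level in another region was examined over mice that gave both. Over the 17 mice with the NAc and the PFC, Nnat had r = 0.53 (permutation p = 0.0285, adjusted p = 0.497), Spearman's rho = 0.59 (permutation p = 0.0140, adjusted p = 0.469) and r = 0.58 without the 2 farthest mice. Rian had r = -0.51 (permutation p = 0.0372, adjusted p = 0.516), Spearman's rho = -0.46 (permutation p = 0.0628, adjusted p = 0.573) and r = -0.42 without the 2 farthest mice. The other 7 genes had r between -0.26 and 0.46, with Meg3 at the upper end (rho 0.53, permutation p = 0.0290, adjusted p = 0.502). Over the 19 mice with the SCN and the NAc, all 9 lay between -0.21 and 0.11. None of the 9 genes passed the permutation test in either pair of regions, and 0 of 11569 and 0 of 11133 genes did so (0.0%). At an unadjusted permutation p under 0.05, 1041 and 362 genes did.

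The genes most like 6 of the imprinted genes were those with the highest value of their lowest r over the 3 regions, among the other 11133 shared rows. This is a description, since libraries share their makeup. Dlk1 was most like C2cd3 (lowest r 0.67), 2900026A02Rik (0.64) and Slc32a1 (0.61), the vesicular transporter of GABA neurons. For Dlk1 the choice also used r in the PFC, which rests on 0 to 25 counts a library. Peg3 was most like Gprasp1 (0.94), Map1b (0.94), a neuronal microtubule protein, and Synj1 (0.93), a phosphatase of synaptic vesicles. Peg10 was most like Zdbf2 (0.62) and Ago2 (0.59), both on the list of other imprinted genes used here, followed by Crocc (0.57). Ndn was most like Rab3b (0.65), Stmn2 (0.64) and Yipf3 (0.63). Nnat was most like Pea15a (0.70), Cotl1 (0.68) and Agpat4 (0.64), and Meg3 like Ebf1 (0.69), Trank1 (0.59) and Brwd3 (0.56).

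A list of 74 other genes described as imprinted in mouse, some of them in other tissues only, was also counted, and 44 had a row in the NAc and PFC counts. Between these regions 15 were higher in the NAc, 11 were lower and 18 were not called, with a median log2 fold change of 0.04. Over all genes 23.7% were higher and 21.7% lower, with a median of 0.02. The 4 with the largest increase were Dlx5 (log2 fold change 3.09), a homeobox gene of GABA neurons, Inpp5f (1.48), a phosphoinositide phosphatase, Zdbf2 (1.40) and Usp29 (1.23), which lies next to Peg3. The 4 with the largest decrease were Cdkn1c (-2.39), a cell cycle inhibitor, Herc3 (-1.13), Gnas (-1.09), the stimulatory G protein subunit, and Dcn (-1.07), a matrix proteoglycan that is also on the list of meninges and vessel markers, which summed to 57.1 to 98.1 CPM in the NAc and 71.6 to 138 CPM in the PFC. Against the NAc, 21 of the 44 were higher and 10 lower in the SCN, with a median of 0.20, where 33.1% of all genes were higher and 31.0% lower, with a median of 0.02. Against the PFC, 23 were higher and 8 lower, with a median of 0.38, where 33.7% of all genes were higher and 31.0% lower, with a median of 0.03.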

How the data were processed

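RNA-seq gene counts of 62 punch libraries were used. Per the study's methods, the authors aligned paired-end reads to GRCm38 with HISAT2 and counted them with HTSeq in union mode. The deposited counts are not normalized and come in 2 tables, with the SCN apart from the other regions. The methods describe a filter on low CPM, and neither the strand setting nor the annotation release is given in the sources used here. FastQC 0.11.7 is named in the submitters' processing notes. Each animal was used as its own sample. No pair of libraries was identical.

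Here, symbols and exons came from GENCODE M21, which matched 12020 of 12047 and 11545 of 11569 rows. Regions were compared with edgeR 4.0.16 (R 4.3.3), TMM and filterByExpr, with no block. DESeq2 1.42.0 was an alternative. Libraries of a mouse come from the same animal and so are paired. As a check, deviations from the region means in the same mouse's PFC and NAc had a median correlation of 0.00606, over 0.1 in 7 of 17 mice. For the SCN and the NAc the median was 0.00133, over 0.1 in 3 of 19 mice. For the SCN and the PFC it was 0.0986, over 0.1 in 6 of 12 mice. Relations used log2 CPM (prior count 2) and two-sided permutation tests with 100000 resamples, whose smallest p is 1e-05. Log2 fold changes have a standard error from edgeR. Mouse numbers up to J1021 and from J1140 were also analysed apart. In simulated counts, edgeR recovered 199 of 200 genes changed 2-fold for NAc against PFC, and smaller changes were not simulated. Totals of 16496666 to 60009482 counts set the precision, which is lowest for Dlk1 in the PFC, and limits from counts cover counting error only.

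Other normalizations, filters, ranges and left-out libraries were tried as alternatives. The genes, the other lists and the tests were chosen with earlier results of these data known. Named genes were the 10 imprinted genes, the 4 other imprinted genes with the largest called change in each direction, and the 3 most alike genes for 6 of them. Behavior and effects of CRD or sex were not analysed here.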

Additional observations from a re-analysis of the deposited data

How the results depend on the processing

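Of 332 alternative values for the log2 fold changes, 323 kept their direction and their side of the threshold, 7 were no longer called and 2 turned. Both turned values were for Rian between the SCN and the NAc, which was 0.50 with the mitochondrial rRNA share as a covariate and 0.0104 among the upper mouse numbers. The cause was not tested. The use of the mitochondrial rRNA share, the scales of Rian and Peg3 along that share, the sum of Snrpn and Gm38393 and the sets without SCN J1157 and SCN J1159 were chosen after seeing the data. With the mouse as a replicate block, 8 of 9 imprinted genes were called between the NAc and the PFC (5681 genes in all), 7 between the SCN and the NAc (7039 genes) and 9 between the SCN and the PFC (7153 genes). Apart from Peg3 between the NAc and the PFC, at 0.34, the block changed no call of these genes. With nuclear genes alone 7, and with total counts alone 8, of the 9 shared genes had their highest median in the SCN.

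Of the same-cluster pairs in the NAc, 0 of 4 were called in the lower range of mouse numbers, 0 in the upper range and 0 after removal of the relation with the mitochondrial rRNA share, against 2. In the lower and upper range fewer libraries were used, and in both Meg3 was related to 0.0% of all genes. In the SCN, 1 of 6, Dlk1 and Rian, was called without SCN J1199 and SCN J1140, where 32.5% of all genes were called with Dlk1 and 26.0% with Magel2. Several r that were not called turned. After removal of the relation with the mitochondrial rRNA share, Dlk1 and Rian had r = 0.0957 (SCN), 0.14 (NAc) and 0.16 (PFC), and Meg3 and Rian 0.12 (SCN). Without the 2 farthest libraries, Meg3 and Rian had 0.060 in the SCN and Dlk1 and Rian 0.0748 in the PFC. In the lower range of mouse numbers, Meg3 and Rian had 0.54 in the SCN (7 libraries) and Meg3 and Dlk1 -0.0992 in the NAc. Without SCN J1157 and SCN J1159, Meg3 and Dlk1 had -0.0686, Meg3 and Rian 0.31, and Ndn and Snrpn -0.0793 in the SCN. Ndn and Snrpn also had -0.0951 without SCN J1199 and SCN J1140 and a Spearman's rho of -0.0719. Depth limits Dlk1 in the PFC, where 6 of 17 libraries held 3 counts or fewer.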

Other observations

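Of the 74 other imprinted genes, 52 had a row in the SCN table, and 8 of these had a row in the SCN table alone, like Magel2. On the scale of the SCN table (n = 19), Ddc, which makes monoamines from their amino acid precursors, lay between 19.2 and 34.2 CPM (median 24.5 CPM). Calcr, the calcitonin receptor, ranged from 15.9 to 29.6 CPM (median 21.1 CPM). Asb4, which is known from hypothalamic neurons, ranged from 7.39 to 47.0 CPM (median 10.7 CPM), and Th, the tyrosine hydroxylase of catecholamine neurons, from 1.95 to 17.9 CPM (median 6.16 CPM). Zim1, a neighbour of Peg3, had a median of 4.10 CPM and was highest in J1157 at 17.1 CPM. Rtl1, which lies between Meg3 and Rian on the opposite strand, had a median of 4.04 CPM and was highest in J1159 at 10.0 CPM. Nespas and Slc22a3 had medians of 2.33 and 2.04 CPM. These values were not compared with the other regions.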
